A study of Mus musculus with 14 samples.

Results

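Expression of 9 leukocyte adhesion genes was followed in mouse bone marrow cells exposed to PBS or IL-1β. The genes encode the ligands Icam1 and Vcam1, the integrin alpha chains Itgal, Itgam and Itga4, the integrin beta chains Itgb1, Itgb2 and Itgb7, and the selectin ligand Selplg. They were chosen by name, as stromal ligands and progenitor integrins, from the 55487 genes of each count table. Earlier results of these data were known at that choice, so counts and medians set against all genes are description only. All 9 passed the filter on low counts in each comparison.

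RNA had been sequenced from LSK cells (Lin-Sca1+c-kit+, the stem cell compartment), LK cells (Lin-c-kit+ myeloid progenitors, labelled MP) and cultured marrow mesenchymal stromal cells (MSC). The LSK and LK cells, in PBS and IL-1β groups alike, came from Mx1Cre; Jak2VF/+ marrow, heterozygous for the Jak2V617F mutation of myeloproliferative neoplasm and induced with pI-pC. By the study's account this marrow had been transplanted into lethally irradiated C57BL/6 mice, which then received PBS (3 LSK and 3 LK libraries) or IL-1β at 0.5 μg per dose (2 LSK and 2 LK libraries) by intraperitoneal injection 3 times per week for 16 weeks. The interferon-responsive Mx1 promoter that drives Cre is also active outside blood cells, and irradiated hosts keep stroma and some long-lived blood cells of their own. MSC were grown for 21 days from wild-type C57BL/6 marrow, with no Jak2 mutation, and were given PBS (2 libraries) or IL-1β at 5 ng/ml (2 libraries) for 72 h. Ages at collection were not in the labels. Which libraries, if any, shared a mouse was not stated either, so the spread between libraries may be partly technical.

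Counted read pairs per library ran from 12172400 to 18544346 in the PBS groups of LSK and LK cells and from 4393233 to 8641124 in their IL-1β groups, so the treated side of those comparisons was the shallower one. MSC libraries held 5834909 to 30871055. Among LSK libraries PBS replicate 2 stood apart: 3279 and 3359 genes lay more than 2-fold from the other PBS replicates, against 1054 between those replicates.

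The labels were checked against marker genes. Ly6a, which encodes Sca1, lay at 15.2 to 42.1 CPM (read pairs scaled to library size) in LSK libraries and at 0.257 to 1.99 in LK libraries, while Kit exceeded 292 CPM in both. Cd3e, of T cells, was at or near 0. The MSC libraries held the mesenchymal list at a summed 1719 to 3531 CPM under PBS and 4344 to 4839 under IL-1β, with Pdgfra at 21.3 to 37.2 CPM but Lepr at 0 in both PBS libraries. A list of 18 macrophage genes summed to 23260 and 27170 CPM under PBS and to 45300 and 46500 under IL-1β in the same cultures, with none of the 18 at 0. Ptprc, which encodes the pan-leukocyte protein CD45, lay at 297 to 414 CPM, above its level in LSK cells (116 to 202). The cultures therefore carried abundant macrophage RNA, and which cells of the culture gave an adhesion transcript cannot be told apart. In all these bulk samples, fewer cells of a type and less RNA per cell cannot be told apart either.

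Leukocytes are held on stroma and vessel walls in steps. P-selectin glycoprotein ligand, the product of Selplg, lets a cell tether and roll on selectins, and integrins then arrest it. Each integrin is an alpha chain paired with a beta chain: Itgal and Itgam pair with Itgb2 and bind ICAM-1, whereas Itga4 pairs with Itgb1 to bind VCAM-1 and fibronectin, or with Itgb7 to bind the gut addressin MAdCAM-1. In the marrow, the pairing of Itga4 and Itgb1 with stromal VCAM-1 is known for retaining stem and progenitor cells, and both ligand genes are classical targets of inflammatory cytokines.

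The genes are scattered over the GRCm38 genome, apart from Itgal (chr7:127296260-127335138) and Itgam (chr7:128062640-128118491), which sit on the plus strand of the same chromosome. Icam1 (chr9:21015985-21028817), Itgb2 (chr10:77530252-77565708), Itga4 (chr2:79255426-79333123) and Itgb1 (chr8:128685654-128733200) are also on the plus strand. Vcam1 (chr3:116109949-116129688), Itgb7 (chr15:102215995-102231944) and Selplg (chr5:113818536-113832644) are on the minus strand. Itgam shares 3450 of its 5024 exon bases with Gm49368, a protein-coding gene on the same strand, and read pairs that fit both genes were not assigned under the counter's stated settings. Levels of Itgam per exon length are therefore too low (its 1574 unshared bases would give 3.35 in place of 1.05 RPKM, CPM per kilobase of exon, in PBS LSK cells), while its fold changes compare the same bases in every library. The overlaps of Icam1, Vcam1 and Itga4 with other genes are on the opposite strand, and counting was by strand.

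RefSeq promoters (GRCm38.p6) were at hand for 5 of the 9 genes. The 250 bases before the RefSeq start are shown for Icam1, which differed in 2 of the comparisons below, and for Itgam, the myeloid alpha chain. The Icam1 stretch is chr9:21015690-21015939 and the Itgam stretch chr7:128062390-128062639, both plus strand and 5′ to 3′, with motif matches in capitals.
Icam1: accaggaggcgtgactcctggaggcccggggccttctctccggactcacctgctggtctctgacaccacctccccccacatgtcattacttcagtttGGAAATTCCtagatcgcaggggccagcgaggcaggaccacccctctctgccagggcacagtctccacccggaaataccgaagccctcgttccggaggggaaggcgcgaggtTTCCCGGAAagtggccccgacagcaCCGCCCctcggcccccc
Itgam: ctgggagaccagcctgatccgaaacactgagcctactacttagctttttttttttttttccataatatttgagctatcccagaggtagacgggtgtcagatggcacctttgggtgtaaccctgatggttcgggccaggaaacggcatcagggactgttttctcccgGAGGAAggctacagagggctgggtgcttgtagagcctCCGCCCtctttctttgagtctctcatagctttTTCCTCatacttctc

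In the Icam1 stretch the capitals mark, in order, GGAAATTCC (an NF-kB type motif, whose first base lies 153 bases before the start), a match to TTCNNNGAA (the GAS motif bound by STAT proteins, 42 bases before) and the reverse complement of GGGCGG (the Sp1 motif, 17 bases before). In the Itgam stretch they mark GAGGAA, a core of the PU.1 motif, at 84 bases and on the other strand at 15 bases before the start, with a reverse GGGCGG at 47 bases. Both strands of the same 250 bases were searched in 32851 RefSeq promoters: GGAAATTCC was in 0.286% of them, TTCNNNGAA in 7.02%, GAGGAA in 23.3% and GGGCGG in 32.7%. GGAAATTCC was added with the Icam1 sequence in view. TGANTCA, the AP-1 motif, was in 6.75% of promoters and in none of the 5. Of the other promoters, those of Itga4 and Itgb1 held GGGCGG once each, that of Itgb1 also GAGGAA once, and that of Itgb7 none of the motifs. These are letter matches, not sites shown to be bound.

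Levels were first compared between genes as RPKM, which are CPM divided by exon length. In LSK cells under PBS, Itgb1 was the highest of the 9 at 67.2 to 80.4 RPKM, above every library of the next gene. Selplg (13.6 to 34.1), Itgb7 (20.5 to 28.8), Itgal (17.5 to 18.9), Itga4 (13.9 to 20.5) and Itgb2 (10.7 to 16.2) formed a middle band in which neighbouring genes overlapped, except that Itgb7 lay above Itgal. Icam1 followed at 6.86 to 11.05 RPKM and touched the range of Itgb2, while Vcam1 was lowest at 0.00883 to 0.119. LK cells under PBS again had Itgb1 first, at 72.3 to 80.5 RPKM, with Itga4 (17.1 to 20.9) and Selplg (15.1 to 25.2) next and overlapping. The MSC cultures had another order: Itgb2 led at 221 to 224 RPKM over all 4 libraries and Itgb1 followed at 146 to 184. Itgam came next at 45.0 to 80.7 RPKM, a level that is too low for its shared exon bases. Selplg stood at 27.8 to 36.8 RPKM there, Icam1 at 5.96 to 18.2 and Vcam1 at 2.61 to 4.78. Itgal lay at 1.08 to 8.88 RPKM over both treatments, Itga4 at 1.56 to 2.81 and Itgb7 at 0.542 to 0.924. Itga4 was 0.0104 to 0.0192 of Itgb1 per exon length in the cultures, against 0.207 to 0.284 in PBS LSK cells.

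In the stromal cultures IL-1β raised 3 of the 9 genes: Itgal 6.34-fold, Icam1 2.20-fold and Vcam1 1.56-fold. None was called lower. A gene was called where edgeR's quasi-likelihood test gave a Benjamini-Hochberg adjusted p under 0.05 over all genes tested and the log2 fold change exceeded 0.5 in size. By this rule 11.4% of the 13239 genes tested were called in either direction, and 7.14% of the genes tested were called higher. Upper-quartile scaling changed the split over all genes from 945 higher and 570 lower to 817 and 831, while the same 3 adhesion genes were called. The median log2 change of the 9 was 0.43, against 0.00 over all genes.

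Icam1, whose protein is the ligand of the beta2 integrins, stood at 42.2 and 26.0 CPM in the PBS cultures and at 68.0 and 79.5 CPM under IL-1β. Both treated cultures lay above both controls, as they did for 5 of the 9 genes and, in either direction, for 61.2% of all genes (log2 fold change 1.14 ± 0.24 SE, n = 2 and 2, adjusted p = 0.0404 by edgeR). Vcam1, the ligand of the Itga4 integrins, went from 23.2 and 28.4 CPM to 39.0 and 42.4 CPM. The groups did not overlap here either (0.64 ± 0.14, edgeR adjusted p = 0.0406), and the change was smaller than that of Icam1, a difference that was not tested.

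Among the integrin chains Itgal, the alpha chain of LFA-1, had the largest change of the 9 in the cultures. It was measured at 12 and 7.08 CPM under PBS and at 57.3 and 58.3 CPM under IL-1β (2.67 ± 0.24, edgeR adjusted p = 0.00388). Its partner Itgb2 was at 684 and 676 CPM against 681 and 679 CPM. The fold change of Itgb2 on the log2 scale had a 95% interval of -0.25 to 0.25. Per exon length, Itgal was 0.00487 and 0.00815 of Itgb2 in the PBS cultures and 0.0391 and 0.0399 in the treated ones.

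Itgam, the alpha chain of Mac-1, was at 226 and 308 CPM under PBS and 406 and 367 CPM under IL-1β. These groups did not overlap, but the change was not called (0.53 ± 0.17, edgeR adjusted p = 0.100, and 0.0423 by DESeq2, the range over alternatives being 2.58e-05 to 0.587). Itgax, a further Itgb2 partner that marks dendritic cells and some macrophages and that comes from the list of other integrin chains, fell from 155 and 331 CPM to 56.3 and 51.2 CPM (-2.18 ± 0.38, edgeR adjusted p = 0.0332). So of the Itgb2 partners in the cultures Itgal was called higher, Itgax lower and Itgam not called.

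The remaining members were not called. Selplg was at 119 and 126 CPM under PBS and at 157 in both treated cultures (0.36 ± 0.10, edgeR adjusted p = 0.0704), and this size is under the fold change threshold. Itga4 overlapped between groups (29.2 and 21.8 against 39.3 and 28.1 CPM, 0.43 ± 0.22). Itgb1 was at 752 and 611 against 597 and 619 CPM (-0.16 ± 0.14). Itgb7 rested on 9 to 51 read pairs per library (0.34 ± 0.44).

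**Figure D1:**
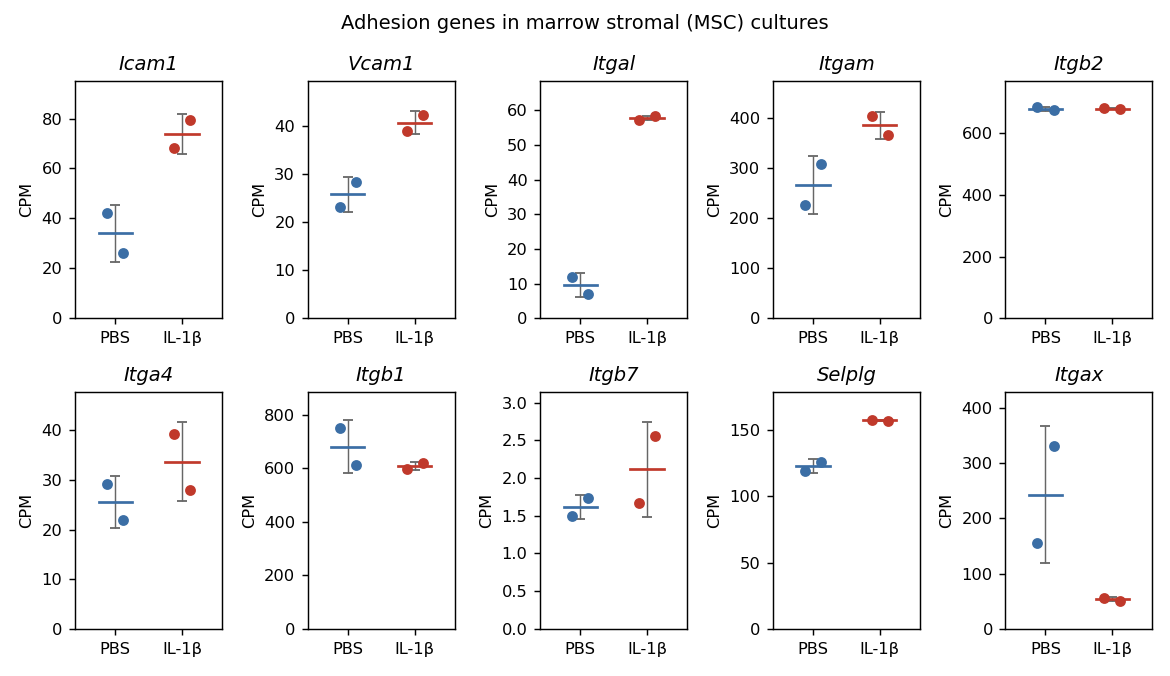
CPM (y axis, linear from 0, one scale per gene) of the 9 adhesion genes and Itgax in each MSC library under PBS (blue) and IL-1β (red); points are libraries, horizontal lines are group means and grey bars the SD (n = 2 per group). Itgal rises from 12 and 7.08 to 57.3 and 58.3 CPM while Itgb2 stays between 676 and 684 and Itgax drops.

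Most but not all macrophage genes moved with these changes: 8 of the 18 on the list were called higher and none lower, and 15 of 18 had a positive change. Adgre1, which encodes F4/80, went from 766 and 654 to 1748 and 1807 CPM, and Lyz2 from 7133 and 4803 to 19870 and 20800. Lower in both treated cultures were 3 genes: Cd68 (1520 and 1089 to 1011 and 867 CPM), Tyrobp (777 and 780 to 613 and 626) and Fcer1g (689 and 710 to 665 and 632). The list median was 697 to 772 CPM under PBS and 755 to 838 under IL-1β. Of 13 mesenchymal genes tested, 1 was called higher (Dcn, decorin, from 63.4 and 84.1 to 236 and 212 CPM). Of the genes listed as other ligands, integrin chains, integrin activators and enzymes of selectin ligand synthesis, 6 of 63 tested were called higher and 3 lower. Over all genes tested, 7.14% were called higher and 4.31% lower. Spp1, encoding osteopontin, a ligand for several integrins, rose by 0.86 ± 0.14 and Alcam, an adhesion molecule of the immunoglobulin family, fell by 0.76 on the log2 scale. Itga6, a laminin receptor chain, rose (0.99 ± 0.13) and Itgb3, the vitronectin receptor beta chain, fell (-1.29 ± 0.14). Among activators Rasgrp2, a Rap exchange factor, rose (1.82 ± 0.35), as did Cyth1, cytohesin-1, which binds the Itgb2 tail (0.98 ± 0.10), and Fermt3, kindlin-3 (0.58 ± 0.11). C1galt1, the core 1 synthase of O-glycans, was the enzyme that rose (0.67 ± 0.12). The part of the macrophage RNA in the changes of the adhesion genes was not tested. Without either IL-1β culture, which leaves a lone treated library assumed to vary like the others, none of the 3 was called (adjusted p 0.0586 to 0.0854 for Itgal, 0.277 and 0.292 for Icam1, 0.327 and 0.365 for Vcam1), and without either PBS culture 4 were.

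In LK cells of IL-1β-treated Jak2VF/+ mice 2 of the 9 genes were higher, Vcam1 by 5.61-fold and Itgb2 by 1.88-fold, and none was called lower, against 9.34% of 12835 genes called in this comparison (6.77% higher). The median log2 change of the 9 was 0.48, against -0.03 over all genes. Vcam1 was at 2.31, 2.73 and 8.59 CPM in the PBS libraries and at 29.2 and 21.5 CPM in the IL-1β libraries. Both treated libraries lay above all controls, of which replicate 3 was the highest (2.49 ± 0.56, n = 3 and 2, edgeR adjusted p = 0.0402). Leaving out 1 library gave log2 changes of 2.19 to 3.32, the latter without PBS replicate 3. Itgb2 was at 26.8, 22.5 and 29.7 CPM under PBS and at 60.2 and 38.3 CPM under IL-1β, again without overlap. Groups did not overlap for 4 of the 9 genes and for 45.7% of all genes (Itgb2 0.91 ± 0.21, edgeR adjusted p = 0.0327).

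Both Itgb2 partners among the members had positive values that were not called. Itgam was at 1.75, 2.21 and 2.36 CPM under PBS and 6.76 and 4.17 CPM under IL-1β (1.37 ± 0.39, edgeR adjusted p = 0.0634, 0.035 by DESeq2 and 0.0147 to 0.518 over the alternatives). Itgal overlapped, at 44.2, 53.2 and 82.4 against 99.0 and 68.2 CPM (0.48 ± 0.29). Icam1 was at 5.40, 7.51 and 12.8 CPM and at 14.6 and 14.1 CPM (0.74 ± 0.35, edgeR adjusted p = 0.238), which is a separation without a call.

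The chains of the VCAM-1 receptor gave narrow intervals around 0 in LK cells. Itga4 lay at 239 to 292 CPM under PBS and 243 and 263 CPM under IL-1β, with a 95% interval of the log2 change of -0.35 to 0.16. Itgb1 lay at 295 to 328 CPM and at 306 and 318 CPM, with an interval of -0.23 to 0.21. Itgb7 (0.11 ± 0.24) and Selplg (0.06 ± 0.23) overlapped between groups.

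These LK calls rested on few libraries. Without PBS replicate 1, PBS replicate 2 or IL-1β replicate 1 neither gene was called (adjusted p 0.0814, 0.109 and 0.264 for Vcam1, and 0.0945, 0.104 and 0.365 for Itgb2); without IL-1β replicate 2 Itgb2 alone was called (0.0402, against 0.128 for Vcam1); without PBS replicate 3 the number rose to 5. A joint fit with the LSK libraries called neither (0.0596 and 0.0746).

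Neutrophil granule genes moved with these genes in LK cells: 8 of 12 tested were called higher and none lower, and the list of 15 summed to 4420 to 9575 CPM under PBS and to 18260 and 21390 CPM under IL-1β. Macrophage-defining Adgre1 lay at 1.28 to 2.54 CPM (0.00 ± 0.53) and C1qa at 0.321 to 1.18 CPM (-1.06 ± 0.79), each with overlapping groups. The macrophage list summed to 492 to 771 CPM under PBS and 727 and 911 under IL-1β. Of its 15 genes tested, 7 had a positive change. Called were 2 higher, Spi1 (1.35 ± 0.28) and Ptprc (0.75 ± 0.19), and 2 lower, Csf1r (-2.49 ± 0.40) and Ctss (-2.5 ± 0.31). All 11 erythroid genes tested had negative values and 3 of them fell. The part of such shifts in the Vcam1 and Itgb2 values was not tested. From the other adhesion lists 8 of 61 genes tested were called higher and 2 lower, against 6.77% and 2.57% of all genes. Itgb2l, a beta chain gene close in sequence to Itgb2, had at most 1 read pair in a PBS library and 39 and 8 in the treated ones, so that most of its reads came from 1 library. Itgav, the vitronectin receptor alpha chain, rose (1.31 ± 0.23), as did Ncam1 (1.66 ± 0.40), while Podxl, a sialomucin, fell (-0.67 ± 0.16). Fut7 (1.27 ± 0.16) and Fut4 (1.15 ± 0.30), fucosyltransferases that build the selectin-binding glycan on the Selplg product, and B4galt1, a galactosyltransferase (0.64 ± 0.11), rose with no called change of Selplg itself. Parvg (0.90 ± 0.19) and Pxn (0.62 ± 0.16), focal adhesion adaptors, rose and Parvb, a parvin, fell (-0.88 ± 0.18).

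In LSK cells none of the 9 genes was called after IL-1β by edgeR, DESeq2 or limma-voom, none had an unadjusted p under 0.05 (18.5% of 13132 genes did), and 0.632% of genes were called. Vcam1 was the single gene whose groups did not overlap, a separation seen for 39.6% of genes. It had 8, 1 and 18 read pairs under PBS and 24 and 12 under IL-1β, or 0.585, 0.0783 and 1.05 against 2.92 and 2.98 CPM (2.32 ± 1.14, edgeR adjusted p = 0.304). Icam1 was at 29.9, 48.2 and 43.8 CPM under PBS and at 18.1 and 31.0 CPM under IL-1β (-0.74 ± 0.35, adjusted p = 0.291 by edgeR). Itga4 was at 287, 194 and 248 CPM and at 231 and 79.8 CPM, the last library being the low one (-0.64 ± 0.41). The other 6 members had log2 changes between -0.23 and 0.18, with 95% intervals from -0.53 to 0.52 for Itgb1, -0.60 to 0.52 for Itgal, -0.45 to 0.82 for Itgb2 and -0.40 to 0.74 for Itgb7. The intervals of Itgam (-1.76 to 1.30) and Selplg (-1.02 to 0.71) were wider. In the same libraries 4 of 12 neutrophil granule genes rose. From the other adhesion lists 0 of 64 genes tested were called.

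**Figure D2:**
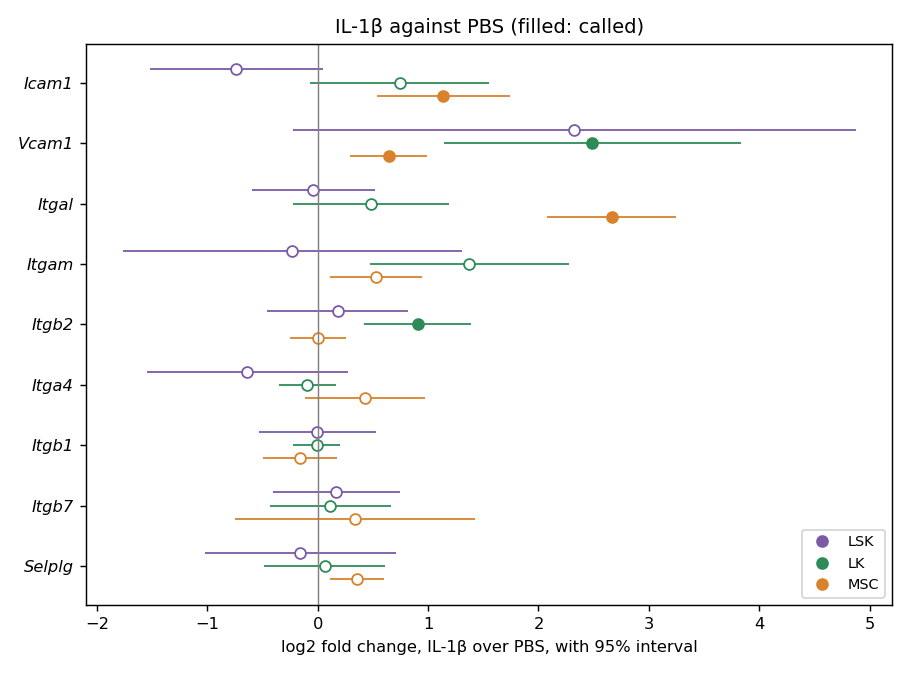
Log2 fold change of IL-1β over PBS (x axis) for each gene (y axis) in LSK (violet), LK (green) and MSC (orange) libraries, with 95% intervals as lines and filled points for called genes. The filled points are Vcam1 and Itgb2 in LK cells and Itgal, Icam1 and Vcam1 in MSC; the LSK interval of Vcam1 reaches from -0.23 to 4.87.

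Whether LSK and LK cells responded differently was tested as an interaction over their 10 libraries. None of the 9 genes was called (0.0289% of 13839 genes were), and 1, Icam1, had an unadjusted p under 0.05, as did 14.2% of all genes. Icam1 had a negative estimate in LSK cells, where the groups overlapped, and a positive one in LK cells, neither of them called, with a difference between responses of -1.51 ± 0.52 on the log2 scale (edgeR adjusted p = 0.245, 0.0792 to 0.806 over the alternatives). For Vcam1 the difference was -0.23 with a 95% interval of -2.63 to 2.17, which leaves room for both a larger and a smaller LSK response.

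LSK and LK cells were then compared with each other within each treatment. Under PBS, Icam1 was 4.62-fold, Itgb7 2.37-fold and Itgal 1.95-fold higher in LSK than in LK cells, and Vcam1 was lower, at 0.127 of the LK level, so that 4 of the 9 were called against 31.2% of 12737 genes. Scaled together, Icam1 had a mean of 41.2 ± 9.03 CPM (SD, n = 3) in LSK and 8.92 ± 4.03 CPM in LK cells (2.21 ± 0.34 SE, edgeR adjusted p = 0.0021). Itgb7 had 69.8 ± 11.7 and 29.5 ± 3.97 CPM (1.24 ± 0.20, edgeR adjusted p = 0.00241). Both kept their call in each of the 13 alternatives, at most 0.0164 and 0.0193.

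Itgal, at 122 ± 7.04 and 62.4 ± 21.2 CPM (0.96 ± 0.23, edgeR adjusted p = 0.014), lost its call without LK replicate 1 (0.0618) or 2 (0.0709). Vcam1, at 0.583 ± 0.492 and 4.73 ± 3.70 CPM (-2.97 ± 0.89, edgeR adjusted p = 0.0333), lost it without LSK replicate 1 (0.0915), without LK replicate 1 (0.0572), 2 (0.0634) or 3 (0.159), and by limma-voom (0.0519). Its log2 value was -2.13 without LK replicate 3 and -3.78 without LSK replicate 3, and the LSK side rested on 8, 1 and 18 read pairs. Itgam (1.28 ± 0.48, adjusted p = 0.0711) and Itgb2 (0.55 ± 0.22, 0.0903) were also without overlap but not called by edgeR, 6 of the 9 genes and 50.4% of all genes having groups that did not overlap. Itga4 (-0.18 ± 0.18), Itgb1 (-0.10 ± 0.14) and Selplg (0.49 ± 0.35) overlapped. Selplg was low in LSK replicate 2, at 58.2 CPM against 144 and 146 CPM when scaled within LSK libraries. Leaving out 1 library gave log2 values of 0.25 to 0.81 for Selplg, and 1 of the 13 alternatives called it. Among the transcripts of Itga4 and its beta partners, Itgb7 was thus the one called. Per exon length Itgb7 was 0.255 to 0.429 of Itgb1 in PBS LSK libraries and 0.124 to 0.148 in PBS LK libraries. Pairing of the proteins was not measured.

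Under IL-1β 2 genes were called between LSK and LK cells, against 8.32% of 11743 genes, and the groups of 4 did not overlap, against 59.5%. Itgb7 was again higher in LSK cells (73.3 ± 8.28 and 29.6 ± 11.2 CPM, n = 2 and 2, 1.30 ± 0.29, edgeR adjusted p = 0.0422), a call lost without LK IL-1β replicate 2 (0.399). Vcam1 was again lower (2.80 ± 0.0262 and 24.6 ± 5.14 CPM, -3.13 ± 0.34, edgeR adjusted p = 0.00739) and was called in each of the 11 alternatives. Icam1 had 23.3 ± 8.55 and 13.9 ± 0.252 CPM (0.73 ± 0.32, edgeR adjusted p = 0.193). Upper-quartile scaling changed the split over all genes from 491 higher and 486 lower to 632 and 416, with the same 2 genes called.

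The sort defines these populations by Sca1, and the stem and progenitor list differed with it (11 of 12 called higher in LSK cells under PBS, 7 of 12 under IL-1β), as did the erythroid list (10 of 11 and 6 of 10 called lower). Their part in the adhesion differences was not tested.

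**Figure D3:**
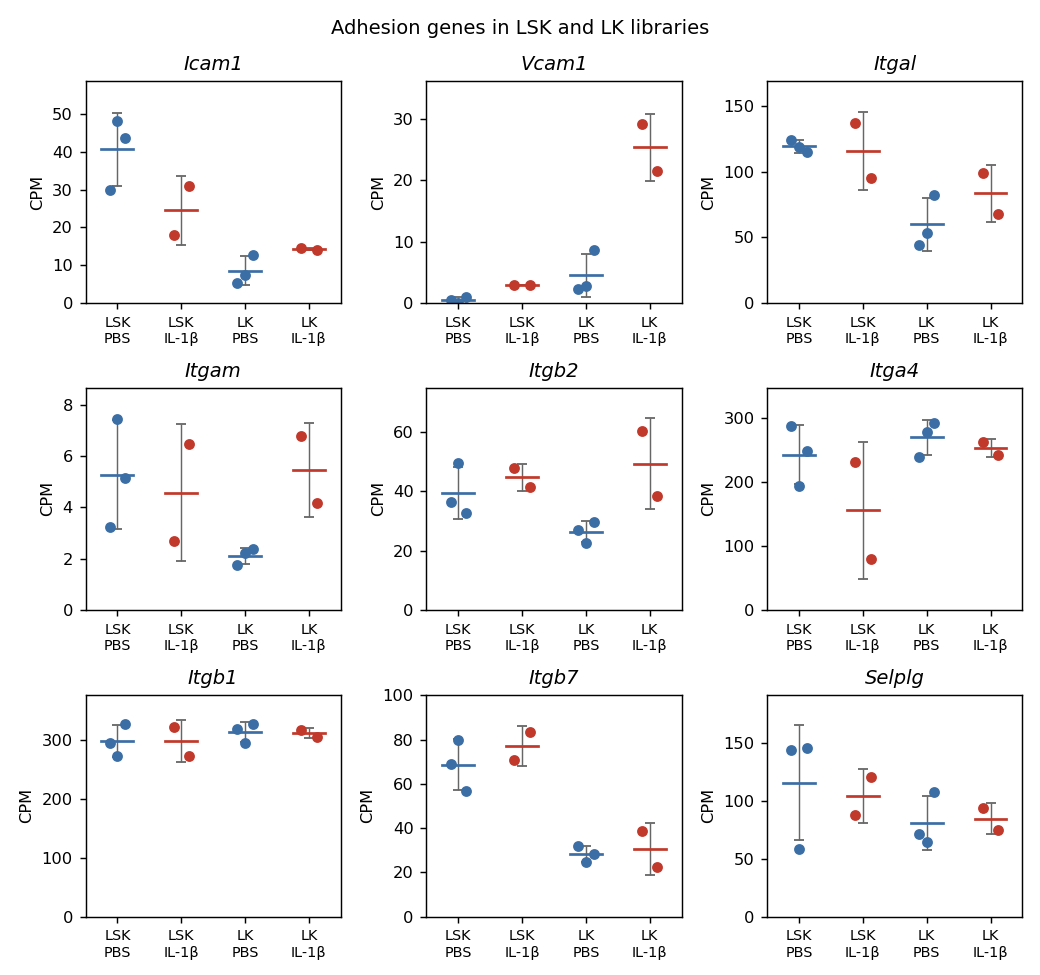
CPM (y axis, linear from 0, one scale per gene) of the 9 genes in each LSK and LK library under PBS (blue, n = 3) and IL-1β (red, n = 2); points are libraries, horizontal lines group means and grey bars the SD. Icam1 and Itgb7 sit higher in LSK than in LK libraries under PBS, and Vcam1 reaches 21.5 and 29.2 CPM in the treated LK libraries while no LSK library passes 2.98. CPM were scaled separately within LSK and within LK libraries, unlike the jointly scaled values of the tests between them.

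**Figure D4:**
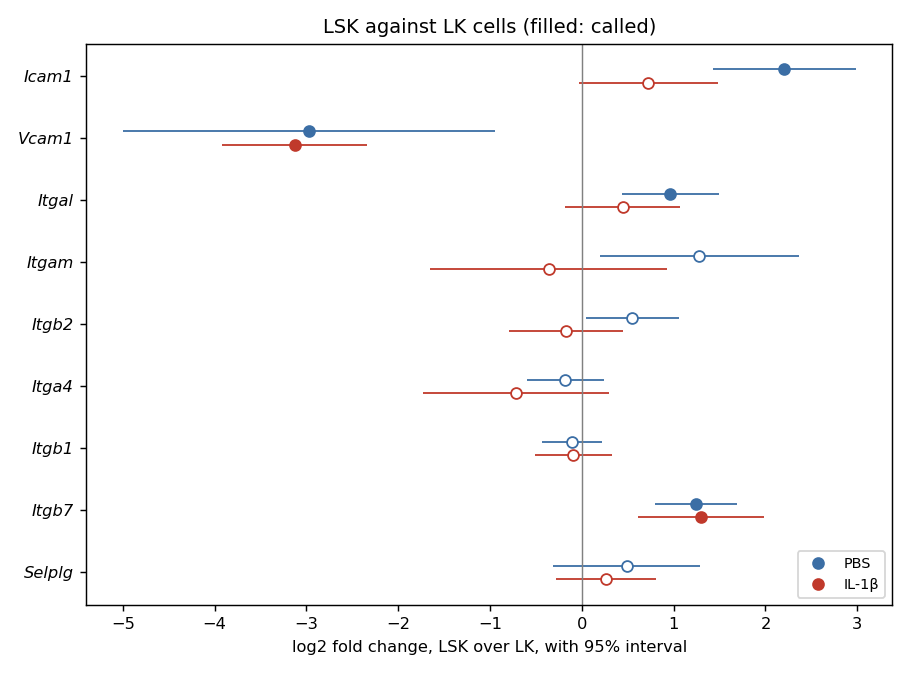
Log2 fold change of LSK over LK cells (x axis) for each gene (y axis) under PBS (blue) and IL-1β (red), with 95% intervals as lines and filled points for called genes. Itgb7 and Vcam1 are filled under both treatments, Icam1 and Itgal under PBS only.

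The genes most like each member in their pattern over the 10 LSK and LK libraries were ranked by Pearson's r of log2 CPM over 13839 genes, as a description. These r values mix the difference between populations with that between treatments and depths. Icam1 was closest to Irf1, an interferon-responsive transcription factor gene (0.98), and to Mfng (0.979) and Tmem159 (0.977). Vcam1 was closest to Nomo1 (0.99), Bak1 (0.985) and Gpx3 (0.982), and Itgb7 to S100a6 (0.967), Ly6a, the gene of the sorted Sca1 (0.958), and Tlr12 (0.956). Itgb2 was closest to Ubtd1 (0.957), Clu (0.922) and Tesc (0.915), Itgal to Slc35f5 (0.969), Slco3a1 (0.966) and Gm26782 (0.964), and Itgam, with the lowest values, to Pigx (0.909), Ubac2 (0.888) and P2rx4 (0.884). Itga4 was closest to Polr2a (0.982), Ncoa6 (0.973) and Chd1 (0.972), Itgb1 to Gm12174 (0.955), Ctnnd1 (0.928) and Zkscan6 (0.924), and Selplg to Cd38 (0.945), Gatad1 (0.945) and Slc17a5 (0.939).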

How the data were processed

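The deposited files hold gene counts: by the file headers and the submitters' notes, the authors trimmed reads with fastp 0.20.0, aligned them with HISAT2 2.0.1, used SAMtools 1.10 and counted read pairs by strand with featureCounts 2.0.2 on the GRCm38 Ensembl annotation. Gene symbols came from GENCODE M21 (55141 of 55487 identifiers). Here, each comparison was fitted on the deposited counts with edgeR 4.0.16 (filterByExpr, TMM factors, robust quasi-likelihood test), without covariates, and p-values were adjusted over all genes tested. SE is the fold change divided by the square root of F. CPM use TMM factors within a table; RPKM divide CPM by exon length. Alternatives were DESeq2 1.42.0, limma-voom 3.58.1, other scalings and filters, a joint fit, a replicate block and leaving out each library; the length alternative for Itgam was added after seeing the data. The fits were tested on simulated data.

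Deviations of same-numbered LSK and LK libraries under PBS had correlations of 0.211, 0.128 and 0.472. Pairs with different numbers gave -0.381 to 0.162, the highest being LSK replicate 2 with LK replicate 1. The same-numbered pairs of replicates 1 and 3 thus lay above every pair with different numbers, that of replicate 1 by little. The pair of replicate 2 did not, and pairing was not settled. A replicate block there changed none of the 4 calls. Same-numbered libraries under IL-1β gave 0.1 and 0.1, which must be equal with 2 libraries a group and so cannot decide pairing. The treatments came from different animals. A further MSC library named in a header had no count column and was not analysed here. The 95% intervals of log2 changes come from the edgeR fit and include the spread between libraries. The members and lists were chosen with earlier results of these data known. Besides the 9 members, the text names genes of 4 adhesion lists that were called with groups not overlapping, up to 3 per list and direction by fold change, the 3 genes most like each member, and list markers; lists of endothelial, lymphoid, stem, erythroid, granule, macrophage and mesenchymal markers were used.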

Additional observations from a re-analysis of the deposited data

How the results depend on the processing

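Of 693 log2 changes under alternatives, 597 kept direction and side of the thresholds, 23 lost a call, 20 gained one and 53 changed sign, all of the last without a call in the reported fit. No result was called with opposite signs. Only results called in the reported fit could lose a call, so 23 of 693 understates the losses. In LK cells Vcam1 lost its call in 5 of 13 alternatives and Itgb2 in 4 of 13. Each called gene in MSC lost it in 2 of 10. Between LSK and LK cells Vcam1 lost it in 5 of 13 and Itgal in 2 of 13 under PBS, and Itgb7 in 1 of 11 under IL-1β. The remaining called results lost none. LK: 5 members were called with the replicate block, which leaves PBS replicate 3 without a partner, 0 in the joint fit, and 0 to 5 when 1 library was left out. Leaving out 1 library gave 0 to 4 members in MSC, 2 to 5 for LSK against LK under PBS and 1 to 5 under IL-1β, where without LSK replicate 1 Icam1, Itga4 and Selplg were also called; the replicate block there gave 3, adding Itga4. The replicate block changed no other call beyond Icam1, Itgal and Itgam in LK. Between treatments this block matches libraries by number alone, although PBS and IL-1β libraries came from different animals. Its 5 LK calls are therefore not a paired result. No replicate block was fitted in MSC because the treatments share 1 number. Over all genes, DESeq2 called 417 higher and 488 lower in LSK cells, against 42 and 41 by edgeR.

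The sign changes were in uncalled values. Itgb1 in LSK cells became 0.0286 by DESeq2, 0.0283 with its size factors, 0.0015 with upper-quartile factors, 0.0044 with 10 counts in 2 libraries and 0.066 with the replicate block, which also gave 0.16 for Selplg. Itgb1 in LK cells became 0.0013, 0.00099 and 0.023 by DESeq2, its size factors and the replicate block. Itgb2 in MSC became 0.042 without a filter and 0.0014 with 10 counts. The LSK minus LK response of Itgb1 became 0.034, 0.033, 0.052 and 0.086 by DESeq2, its size factors, upper-quartile factors and without a filter. Leaving out 1 library gave, in LSK cells, -0.34 to 0.22 for Itgal, -0.95 to 0.29 for Itgam, -0.13 to 0.14 for Itgb1 and -0.46 to 0.050 for Selplg; in LK cells, -0.053 to 0.029 for Itgb1, -0.36 to 0.46 for Itgb7 and -0.12 to 0.33 for Selplg; in MSC, -0.0053 to 0.018 for Itgb2 and -0.30 to 0.0017 for Itgb1; for LSK against LK under IL-1β, -1.08 to 0.22 for Itgam, -0.46 to 0.17 for Itgb2 and -0.19 to 0.0057 for Itgb1; and for the LSK minus LK response, -1.07 to 0.55 for Vcam1, -0.11 to 0.081 for Itgb1, -0.28 to 0.52 for Itgb7 and -0.59 to 0.03 for Selplg. The cause of these changes was not tested. With 2 or 3 libraries a group, small changes were not detectable.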

Other observations

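Of the other adhesion genes, 24 of the 61 tested were called higher in LSK than in LK cells under PBS and 8 lower. Over all genes tested, 18.4% were called higher and 12.8% lower. Esam and F11r, junctional adhesion proteins, were at 24.1 ± 4.17 and 20.5 CPM in LSK and at 0.777 ± 0.355 and 0.652 CPM in LK cells, and Selp, P-selectin, at 117 and 22.8 CPM, while Podxl was at 33.9 and 220 CPM and Icam4, an erythroid ligand, at 9.75 and 26.6 CPM. Itgb3, the beta chain of the platelet fibrinogen receptor, was at 102 and 15.2 CPM. Fut7 was at 59.4 and 18.8 CPM and St3gal6, a sialyltransferase, at 2.30 and 34.5 CPM. Under IL-1β 7 of 57 were called higher and 5 lower, among them Itga2b, the partner of Itgb3 on platelets (502 and 148 CPM). The shares over all genes tested there were 4.18% higher and 4.14% lower.

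Endothelial genes were called higher in LSK cells for 5 of 6 tested under PBS and 3 of 5 under IL-1β (1 lower). The shares over all genes are those given above for each treatment. Cdh5, a defining endothelial gene, was nevertheless at 0 to 0.146 CPM. In LK cells IL-1β raised 1 of 5 endothelial and 1 of 3 lymphoid genes and lowered 1 of each, and in LSK cells 0 of 7 endothelial and 0 of 5 lymphoid genes rose and 1 lymphoid gene, Dntt, fell.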
